A study of Mus musculus with 24 samples.

Results

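Extraembryonic and definitive endoderm genes were followed in RNA sequencing libraries of embryonic stem (ES) cells from the mouse, pluripotent cells derived from the early embryo. The 10 genes were chosen by symbol and were Gata4, Gata6, Sox17, Sox7, Foxa2, Hnf4a, Dab2, Lama1, Pdgfra and Sparc, out of 37310 gene entries in each of the 2 deposited tables. Each symbol had 1 row, except that Dab2 had a second row (ENSMUSG00000079102.2), listed at 0 in every sample and not used further. The study compared 6 genotypes with 3 biological replicates each. The first table held Double KO cells (Smchd1 and Dux knocked out), Smchd1 KO cells, Dux KO cells and wild-type (WT) cells. The second held quad KO cells (Tet1, Tet2, Tet3 and Smchd1 knocked out) and Tet TKO cells (Tet1, Tet2 and Tet3 knocked out), so both of its genotypes carry, per the labels, the knockout of the 3 Tet genes. Smchd1 encodes a chromatin protein with roles in gene silencing, Dux encodes a transcription factor of the early embryo, and the TET enzymes oxidise methylated cytosine. All cultures were grown per the labels without feeder cells, on gelatin, in medium with serum and LIF, the cytokine that keeps ES cells undifferentiated. Whether the replicates of a knockout were separate clones, the ES cell line and its strain were not given in the sources used here.

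As background, the first endoderm of the mouse embryo is the primitive endoderm, which forms beside the pluripotent epiblast under FGF signalling and depends on Gata6. It gives rise to visceral endoderm, which absorbs and secretes proteins around the embryo, and to parietal endoderm, which lays down a thick basement membrane rich in laminin and type IV collagen. Definitive endoderm, the source of gut, liver and pancreas, arises later at gastrulation and shares Sox17 and Foxa2 with the extraembryonic lineages. Serum and LIF cultures of ES cells commonly hold some cells that express primitive endoderm genes.

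Library depth was 11.4 to 74.4 gene reads in units of 1e6. The values were CPM, reads per 1e6 reads of an effective library size, and levels were compared only within a table, since the tables had been normalized separately. Where the labels left the 2 technical runs of a Smchd1 KO replicate unmatched, its 6 columns were joined into 3 pairs by their smallest noise. The noise ratio, the squared difference between libraries relative to counting error alone, was 16.6 to 29.8 between Double KO replicates, 3.25 to 13.4 between Smchd1 KO replicates, 15.9 to 31.7 between Dux KO replicates and 1.28 to 1.98 between WT replicates, against 1.46 to 1.63 between technical runs of 1 WT replicate. It was 3.53 to 11.1 among quad KO and 1.42 to 1.69 among Tet TKO samples. The biological replicates of WT and of Tet TKO were thus as close as repeat runs, so p-values measure the spread between these samples, which may be technical. Some replicates stood apart by a median shift of over 0.25 on the log2 scale across a whole chromosome: Double KO replicate 3 (chromosomes 1 and 6), Smchd1 KO replicate 2 (chromosome 6), Dux KO replicates 2 (chromosome 6) and 3 (chromosome 8), and quad KO replicates 2 (chromosome 6) and 3 (chromosomes 6 and 8). Quad KO replicate 1 had like shifts just under that threshold, of -0.21 on chromosome 6 and -0.18 on chromosome 8. Dux KO replicate 1 did too, with -0.23 on chromosome 6 and, after rounding, -0.25 on chromosome 12. Of the 10 endoderm genes, Sox17 on chromosome 1 was the one that lay on such a chromosome. Smchd1 transcript was at 79.0 ± 8.48 CPM in Double KO, at 60.4 ± 15.3 CPM in Smchd1 KO, at 193 ± 19.6 CPM in Dux KO and 206 ± 2.28 CPM in WT, and at 23.4 ± 14.7 CPM in quad KO and 155 ± 5.46 CPM in Tet TKO (SD, n = 3 each, as for all values with an SD here). Transcripts of the Tet genes were present in both genotypes of the second table, Tet1 at 289 ± 7.22 CPM in quad KO and 272 ± 3.21 CPM in Tet TKO, Tet2 at 235 ± 2.81 and 337 ± 6.57 CPM, and Tet3 at 45.3 ± 1.58 and 44.4 ± 1.47 CPM. The entry named Dux was at 0.0815 ± 0.141 CPM in Double KO, at 0.697 ± 0.248 CPM in Smchd1 KO, at 0.149 ± 0.258 CPM in Dux KO and at 0.0983 ± 0.0517 CPM in WT. Its mean was thus higher in the samples labelled Dux KO than in WT, through 1 replicate at 0.447 CPM, and levels this low do not check the Dux knockout.

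The ES cells were checked against their markers first. The summed level of 11 ES cell markers, among them Pou5f1, Nanog and Sox2, was 2901 to 4405 CPM in Double KO, 4555 to 5097 CPM in Smchd1 KO, 4010 to 4626 CPM in Dux KO and 4807 to 4859 CPM in WT, with none of the 11 at 0. Against that, the 9 endoderm genes other than Hnf4a summed to 608, 587 and 609 CPM in the 3 WT replicates. In bulk samples such as these, fewer cells of a type and less RNA per cell cannot be told apart. Scaled by exon length, the mean WT level was 58.7 CPM per kilobase for Sparc, a secreted glycoprotein that binds matrix, and 30.0 CPM per kilobase for Lama1, the laminin alpha chain of the early basement membrane. Dab2, an endocytic adaptor, stood at 5.26 CPM per kilobase. The zinc finger factors Gata4 and Gata6 stood at 3.63 and 1.91 CPM per kilobase, the SOX factor Sox7 at 1.59 and the receptor Pdgfra at 1.31. Lowest were Sox17 at 0.835 CPM per kilobase, the forkhead factor Foxa2 at 0.668 and the nuclear receptor Hnf4a at 0.453. The matrix genes thus gave most of the summed signal, and the transcription factors were at low levels throughout.

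The replicates of each knockout in the first table differed widely in 9 of these genes, and they differed together. In Double KO, replicate 1 was the highest for all 9 (Hnf4a was the exception), whereas 30.0% of the 16200 genes kept were highest there. Smchd1 KO replicate 3 was the highest of its genotype for the same 9 (30.7% of all genes), and Dux KO replicate 3 likewise (38.0% of all genes). All 3 placements held together for 9 of the 10 endoderm genes and for 1240 of the 16200 genes (7.65%). WT replicates showed no such spread: the ratio of the highest to the lowest WT replicate was 1.01 to 1.27 over the 10 genes.

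Gata6 (ENSMUSG00000005836.8, chromosome 18), the factor that primitive endoderm depends on, was at 25.0, 2.63 and 1.01 CPM in the Double KO replicates, at 11.3, 5.63 and 27.8 CPM in Smchd1 KO, at 8.35, 2.82 and 20.1 CPM in Dux KO and at 12.5, 12.1 and 12.7 CPM in WT. Each knockout genotype therefore had replicates both above and below all WT replicates. Gata4 (ENSMUSG00000021944.8, chromosome 14), its relative in the same lineage, was at 37.4, 9.48 and 4.22 CPM in Double KO, at 16.1, 9.62 and 42.5 CPM in Smchd1 KO, at 11.0, 8.45 and 31.9 CPM in Dux KO and at 14.5, 13.3 and 14.6 CPM in WT. As for Gata6, 1 Double KO and 1 Dux KO replicate exceeded WT and the other 2 of each were below it.

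Among the SOX and forkhead factors the same replicates stood out. Sox17 (ENSMUSG00000025902.7, chromosome 1), which acts in primitive and definitive endoderm, was at 11.0, 0.795 and 0.416 CPM in Double KO, at 4.98, 2.58 and 13.0 CPM in Smchd1 KO, at 3.28, 0.893 and 7.41 CPM in Dux KO and at 4.18, 3.80 and 3.97 CPM in WT. Its lowest value was in Double KO replicate 3, where the chromosome that carries it was shifted by 0.46 upward. Sox7 (ENSMUSG00000063060.5, chromosome 14), a related factor of primitive and parietal endoderm, was at 12.9, 1.04 and 0.772 CPM in Double KO, at 2.78, 1.37 and 7.40 CPM in Smchd1 KO, at 3.65, 1.79 and 10.7 CPM in Dux KO and at 5.23, 5.34 and 5.15 CPM in WT. Foxa2 (ENSMUSG00000037025.5, chromosome 2), a factor of definitive and anterior visceral endoderm, was at 4.89, 0.122 and 0.416 CPM in Double KO, at 2.61, 1.36 and 7.64 CPM in Smchd1 KO, at 1.04, 0.206 and 1.57 CPM in Dux KO and at 1.58, 1.78 and 1.39 CPM in WT. Foxa2 had the widest range of the 10 in Double KO, a ratio of 40.0 between the highest and the lowest replicate, at only 88 reads over the 3 libraries.

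The receptor, the adaptor and the matrix genes followed the factors. Pdgfra (ENSMUSG00000029231.9, chromosome 5), a receptor tyrosine kinase that marks primitive endoderm, was at 34.3, 4.34 and 1.90 CPM in Double KO, at 11.9, 6.72 and 31.2 CPM in Smchd1 KO, at 12.5, 7.14 and 26.8 CPM in Dux KO and at 12.9, 12.9 and 13.5 CPM in WT. Dab2 (ENSMUSG00000022150.9, chromosome 15), the adaptor needed for uptake in visceral endoderm, was at 81.5, 15.1 and 11.1 CPM in Double KO, at 32.9, 13.5 and 103 CPM in Smchd1 KO, at 38.8, 13.7 and 86.8 CPM in Dux KO and at 39.4, 36.4 and 39.9 CPM in WT. For both genes the WT values lay inside the range of every knockout genotype.

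Lama1 (ENSMUSG00000032796.7, chromosome 17) was at 934, 160 and 39.5 CPM in Double KO, at 367, 266 and 1005 CPM in Smchd1 KO, at 347, 239 and 702 CPM in Dux KO and at 294, 280 and 296 CPM in WT. Sparc (ENSMUSG00000018593.6, chromosome 11) was at 654, 218 and 158 CPM in Double KO, at 348, 250 and 681 CPM in Smchd1 KO, at 186, 146 and 412 CPM in Dux KO and at 224, 221 and 222 CPM in WT. Lama1 thus spanned a ratio of 23.6 within Double KO, and Sparc, the most abundant of the 10 per kilobase, the narrowest range of the 9 there at 4.13. Hnf4a (ENSMUSG00000017950.9, chromosome 2) behaved otherwise. It was at 2.10, 2.20 and 3.21 CPM in Double KO, at 5.93, 7.70 and 7.23 CPM in Smchd1 KO, at 3.88, 6.59 and 2.82 CPM in Dux KO and at 2.28, 2.12 and 2.16 CPM in WT. Its Smchd1 KO values did not overlap those of Double KO or WT, and its highest replicates were Double KO 3, Smchd1 KO 2 and Dux KO 2.

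**Figure D1:**
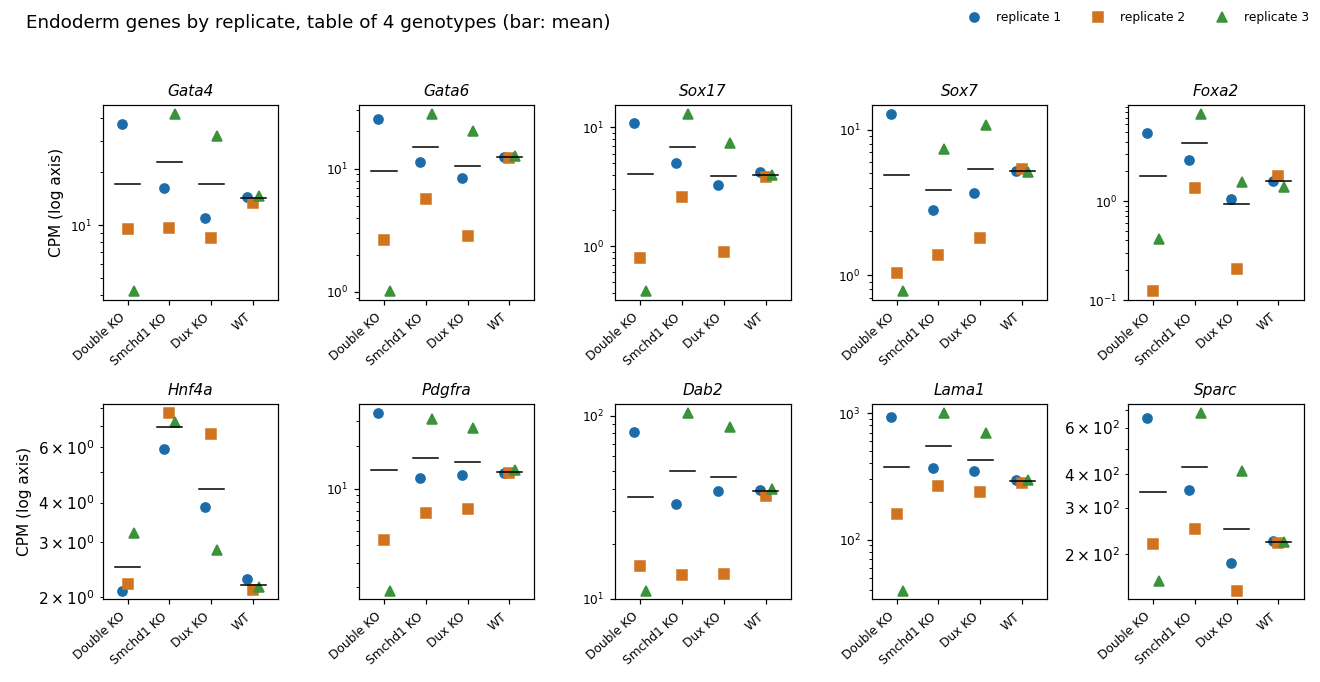
Level of each endoderm gene (CPM, log axis, with its own range in each panel) in every replicate of Double KO, Smchd1 KO, Dux KO and WT cells; symbols mark the replicate number and bars the mean. For the 9 genes other than Hnf4a, Double KO replicate 1, Smchd1 KO replicate 3 and Dux KO replicate 3 are the highest of their genotype, while the WT replicates nearly coincide.

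On the log2 scale, the median SD of the 10 genes was 1.77 in Double KO, 1.07 in Smchd1 KO, 0.95 in Dux KO and 0.05 in WT, and that of all genes was 0.31, 0.12, 0.30 and 0.05 in the same genotypes. A ratio of at least 2 between replicates, with 0.5 CPM added to both, was found in Double KO for 9 of the 10 genes (20.4% of all genes), in Smchd1 KO for 9 (2.68%), in Dux KO for 10 (20.4%) and in WT for 0 (0.0247%). The summed level of the 9 genes was 1795, 411 and 218 CPM in Double KO, 798, 557 and 1919 CPM in Smchd1 KO, 612, 420 and 1299 CPM in Dux KO, and 608, 587 and 609 CPM in WT. Relative to the WT mean, the log2 difference of this sum was -1.47 in Double KO replicate 3, the lowest of the 12 samples, and 1.67 in Smchd1 KO replicate 3, the highest, and Double KO replicate 1 stood at 1.58. Across the 12 samples, which share 1 normalization and come from 4 genotypes, Pearson's r over log2 levels was 0.71 to 0.98 (median 0.92) for the 36 pairs of the 9 genes. Hnf4a correlated with them at -0.30 to 0.13.

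**Figure D2:**
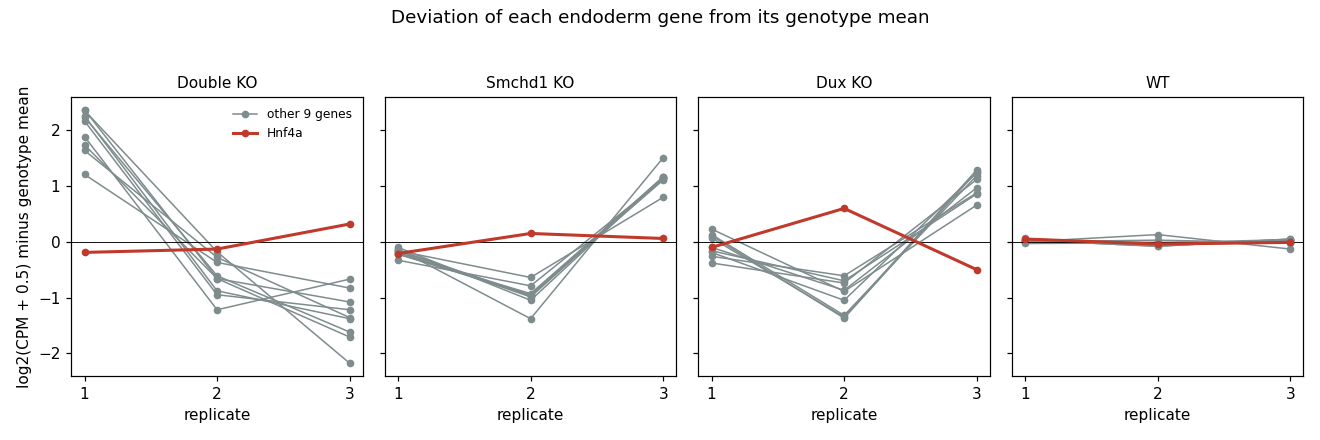
Deviation of each endoderm gene from the mean of its genotype (log2 of CPM + 0.5) by replicate in Double KO, Smchd1 KO, Dux KO and WT cells; each grey line is 1 of 9 genes and the red line is Hnf4a. The grey lines run together, with a median of 2.03 in Double KO replicate 1, 1.15 in Smchd1 KO replicate 3 and 1.04 in Dux KO replicate 3, and stay near 0 in WT.

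Other markers were summed in the same replicates. Of 16 parietal endoderm genes, chiefly basement membrane components and their processing enzymes, 15 were highest in Double KO replicate 1, 14 in Smchd1 KO replicate 3 and 13 in Dux KO replicate 3. Their sum differed from the WT mean by 1.32, 1.23 and 0.77 on the log2 scale in those replicates. The tested visceral endoderm transport and secreted genes followed in part, with 8 of 13 highest in Double KO replicate 1, 10 in Smchd1 KO replicate 3 and 9 in Dux KO replicate 3. Their sums differed from the WT mean by 0.60, 0.33 and 0.56 there. The other 2 endoderm lists did not follow as closely. Of 9 tested endoderm transcription factors, 4, 5 and 4 were highest in those replicates, with sums at 0.06, 0.71 and -0.18. Of 6 tested definitive endoderm surface genes, 3 were highest in each of them, with sums at -0.26, 0.02 and -0.21.

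Genes of other lineages moved in some of the same samples. All 7 tested trophoblast markers, such as Cdx2 and Hand1, were highest in Double KO replicate 1 and in Dux KO replicate 3, but 3 of 7 in Smchd1 KO replicate 3. Their sum (8 genes, none at 0) was 24.5 to 120.4 CPM in Double KO, 23.9 to 28.3 CPM in Smchd1 KO, 16.8 to 69.7 CPM in Dux KO and 20.3 to 21.9 CPM in WT. Of 7 tested fibroblast markers, 6 were highest in Double KO replicate 1, 0 in Smchd1 KO replicate 3 and 6 in Dux KO replicate 3. The fibroblast sum (12 genes) was 52.8 to 116 CPM in Double KO, where Dcn and Lum were at 0, 42.8 to 79.7 CPM in Smchd1 KO, where Fap and Lum were at 0, 31.2 to 55.3 CPM in Dux KO, where Dcn, Fap and Lum were at 0, and 32.3 to 35.0 CPM in WT, where Fap was at 0. Mesoderm markers (10 genes) summed to 5.63 to 9.03 CPM in Double KO, 6.57 to 7.73 CPM in Smchd1 KO, 2.98 to 8.26 CPM in Dux KO and 6.14 to 7.47 CPM in WT. The ES cell marker sum differed from the WT mean by -0.73 on the log2 scale in Double KO replicate 1, by -0.08 in Smchd1 KO replicate 3 and by -0.27 in Dux KO replicate 3. The part of these other markers in the levels of the endoderm genes was not tested.

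**Figure D3:**
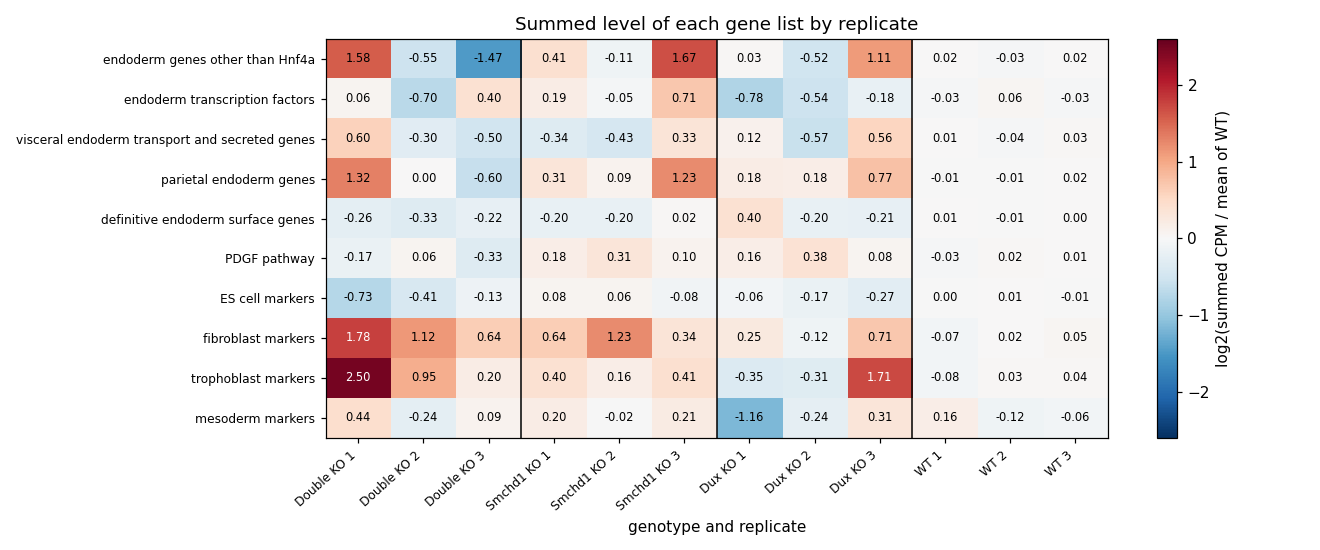
Log2 ratio of the summed CPM of each gene list to its WT mean, for each replicate of Double KO, Smchd1 KO, Dux KO and WT; red is above WT and blue below. The endoderm genes other than Hnf4a (1.58, 1.67 and 1.11) and the parietal endoderm genes (1.32, 1.23 and 0.77) are both high in Double KO 1, Smchd1 KO 3 and Dux KO 3, and trophoblast markers (2.50, 0.41 and 1.71) are high in Double KO 1 and Dux KO 3.

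The genotypes were then compared to ask how loss of Smchd1, of Dux and of both changed the endoderm genes. Log2(CPM + 0.5) was fitted with limma and p-values were adjusted over all genes kept, so fold changes of genes with few reads are understated. The comparisons share samples with each other, and all 10 genes were tested in each. Against this replicate spread, Hnf4a was the one endoderm gene that passed in any of them.

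In Smchd1 KO vs WT, Hnf4a rose to 6.95 ± 0.917 CPM in Smchd1 KO, against 2.19 ± 0.0868 CPM in WT. This was a log2 difference of 1.46 ± 0.26 (SE), or 2.76-fold (adjusted p = 0.0227, limma). It was higher in 3 of 3 Smchd1 KO replicates. The other 9 genes did not pass, with adjusted p of at least 0.451, and 0.889% of all genes passed. The median log2 difference of the 10 genes was 0.42, against 0.00 over all genes, and without Smchd1 KO replicate 3 it was -0.15. The Hnf4a call was lost on leaving out any 1 of the 6 samples (adjusted p up to 0.151), while its log2 difference stayed at 1.39 to 1.57. Without Smchd1 KO replicate 2 and the other samples with a shifted chromosome, a choice made after seeing the data, Hnf4a was at 1.39.

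In Double KO vs Smchd1 KO, Hnf4a fell to 2.50 ± 0.611 CPM in Double KO, against 6.95 ± 0.917 CPM in Smchd1 KO, a 2.50-fold lower level on the fitted scale (log2 -1.32 ± 0.26, adjusted p = 0.0224, limma). No other endoderm gene passed, where 4.38% of all genes did. The median log2 difference of the 10 genes was -1.13 with limma on log values, against -0.03 over all genes, and -0.47 with edgeR on reads, where Sox7 was at 0.31. Sox17 (-1.36, adjusted p = 0.349), Foxa2 (-1.31, adjusted p = 0.28), Lama1 (-1.35, adjusted p = 0.354) and Gata6 (-1.36, adjusted p = 0.372) differed by over 1 on the log2 scale without passing the limma test. With edgeR they were at -0.74, -1.09, -0.48 and -0.64 in the same order, and without Double KO replicate 3 Sox17 was at -0.67, Lama1 at -0.25 and Gata6 at -0.51. Without Double KO replicate 3 the median was -0.19, and without Double KO replicate 1 it was -1.77. The Hnf4a call was lost without Double KO replicate 1 or without any 1 of the Smchd1 KO replicates (adjusted p up to 0.111). Without the samples with a shifted chromosome, the Hnf4a difference was -1.41 on the log2 scale.

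Dux KO vs WT gave no call among the 10 genes in limma or in edgeR, where 3.98% of all genes passed in limma. An unadjusted p under 0.05 (limma) was reached by 1 of the 10 (Hnf4a) and by 4205 of all 16200 genes. Hnf4a averaged 4.43 ± 1.95 CPM in Dux KO and 2.19 ± 0.0868 CPM in WT (log2 0.80, adjusted p = 0.0944, limma). It passed without Dux KO replicate 3, a setting in which 2797 of 16117 genes passed. The median over the 10 genes was -0.04, and it was -0.63 without Dux KO replicate 3 and 0.36 without Dux KO replicate 2.

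Double KO vs WT likewise gave 0 calls of 10 in limma and in edgeR, with adjusted p of at least 0.381 in limma, where 1.57% of all genes passed. An unadjusted p under 0.05 (limma) was reached by 0 of the 10 and by 3743 of all 16200 genes. Gata6 averaged 9.55 ± 13.4 CPM in Double KO and 12.4 ± 0.334 CPM in WT (log2 -1.39 ± 0.91, adjusted p = 0.381, limma). The median of the 10 genes was -0.67 with limma on log values and 0.16 with edgeR on reads. Double KO replicate 1 decided much of this value, since without it the median was -1.70, and without Double KO replicate 3 it was -0.10. The median thus depended on which Double KO replicates entered it.

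Double KO vs Dux KO gave 0 calls of 10 in limma and in edgeR, where 0.0123% of all genes passed in limma. An unadjusted p under 0.05 (limma) was reached by 1 of the 10 and by 1583 of all 16200 genes. Lama1 averaged 378 ± 486 CPM in Double KO and 429 ± 242 CPM in Dux KO (log2 -1.09 ± 0.87, adjusted p = 0.745, limma). The median over the 10 genes was -0.62, and -1.55 without Double KO replicate 1 and 0.04 without Double KO replicate 3. Without the samples that carry a shifted chromosome, the Lama1 difference changed sign to 0.15.

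Whether loss of Smchd1 acted differently in Dux KO and WT cells was tested as an interaction, the difference Double KO minus Dux KO less the difference Smchd1 KO minus WT. Hnf4a passed with a log2 value of -2.13 ± 0.37 (adjusted p = 0.0331, limma), where 0.512% of all genes passed. Its 2 parts were -0.66 in the Dux KO background, which did not pass on its own (adjusted p = 0.428, limma), and 1.46 in the WT background. Lama1 had an interaction of -1.76 ± 1.23 and did not pass (adjusted p = 0.473), and the remaining 8 genes were smaller than 1 in size. With edgeR the Hnf4a interaction was -2.44 and did not pass (adjusted p = 0.0641).

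**Figure D4:**
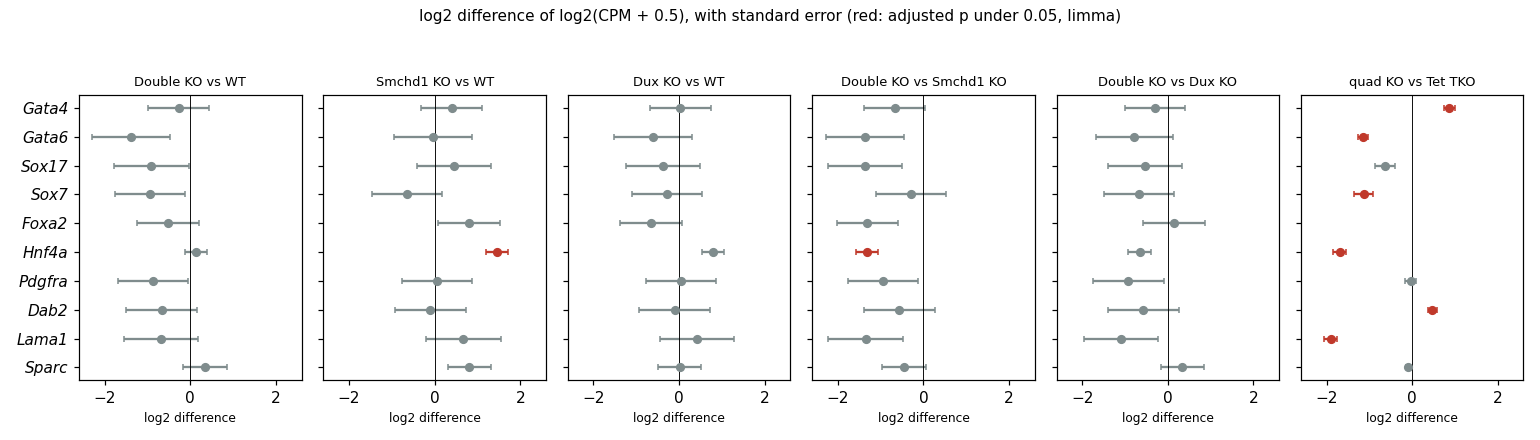
Log2 difference of each endoderm gene in 6 comparisons, the genotype named first minus the second, with the standard error; red marks an adjusted p under 0.05 (limma). Hnf4a is the red point in Smchd1 KO vs WT (1.46) and in Double KO vs Smchd1 KO (-1.32), and the standard errors of the other genes are wide in the first table. In quad KO vs Tet TKO, where 37.7% of all genes passed, 6 genes are red, among them Hnf4a, kept by the filter through Tet TKO alone.

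For Hnf4a, the one endoderm gene with a call in the first table, the bases before its annotated starts are shown because the counts are per gene and do not separate transcripts from its 2 starts. The windows are the 250 bases upstream of each start on the plus strand, from RefSeq (GRCm38.p6), 5′ to 3′, at chr2:163506607-163506856 (upstream start) and chr2:163546905-163547154 (downstream start). Capitals mark the letters AGATAA or AGATAG, as well as TGATAA or else TGATAG, on either strand, the core that GATA factors bind. A Dab2 window, at chr15:6299539-6299788 (plus strand), is set beside them as a gene of the group that moved with Gata4 and Gata6 among replicates.
Hnf4a upstream start: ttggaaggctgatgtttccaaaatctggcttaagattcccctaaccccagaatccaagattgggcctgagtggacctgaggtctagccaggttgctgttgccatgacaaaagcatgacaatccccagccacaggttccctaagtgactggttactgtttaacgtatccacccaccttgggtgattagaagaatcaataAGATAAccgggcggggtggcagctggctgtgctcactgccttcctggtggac
Hnf4a downstream start: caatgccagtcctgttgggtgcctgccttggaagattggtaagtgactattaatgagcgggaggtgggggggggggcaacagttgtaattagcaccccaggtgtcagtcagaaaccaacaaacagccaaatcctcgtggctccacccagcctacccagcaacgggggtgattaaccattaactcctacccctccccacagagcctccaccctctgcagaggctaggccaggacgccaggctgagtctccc
Dab2 first start: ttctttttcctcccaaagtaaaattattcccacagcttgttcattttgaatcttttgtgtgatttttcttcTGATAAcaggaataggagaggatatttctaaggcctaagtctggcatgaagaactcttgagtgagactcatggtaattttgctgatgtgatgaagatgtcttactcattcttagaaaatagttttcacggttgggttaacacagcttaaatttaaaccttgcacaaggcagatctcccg
The match began 52 bases before the upstream Hnf4a start and 179 bases before the Dab2 start, and the downstream Hnf4a window held none. Of the windows not printed, the third Foxa2 start had a match 183 bases before it, while the second Dab2 start, the other 2 Foxa2 starts and the single starts of Pdgfra and Sparc had none. RefSeq windows were matched for 5 of the 10 genes (Dab2, Foxa2, Hnf4a, Pdgfra and Sparc, 9 starts). GATA letters stood in 3 of the 9 windows, against 26.5% of 32851 windows of all genes. The letters TGTTTAC (forkhead factors) were in 0 of 9, against 3.17% of all windows, ACAATG (SOX factors) in 0 of 9, against 10.7%, and CAAAGTCC (HNF4) in 0 of 9, against 1.2%, each on both strands. With 0 matches of the other motifs, no overlap between motifs arose, and a match is a description of the window.

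In quad KO vs Tet TKO, 5 of the 8 endoderm genes tested other than Hnf4a passed (limma). Of these, 2 were higher in quad KO and 3 lower. Whether loss of Smchd1 or another difference between these cultures gave the changes was not tested. Hnf4a, which entered the test through its Tet TKO level alone, is described separately. Of all genes, 37.7% passed in this comparison, 17.1% higher and 20.6% lower. Foxa2 was below the filter of 0.5 CPM in 3 samples and was not tested. The median log2 difference of the 8 was -0.37, against -0.01 over all genes.

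Lama1, the laminin chain, fell furthest. It was at 12.4, 7.92 and 8.76 CPM in quad KO, against 36.0, 37.7 and 37.1 CPM in Tet TKO, so the groups did not overlap (log2 -1.90 ± 0.15, 3.74-fold lower, adjusted p = 0.000128, limma). Hnf4a, the nuclear receptor of visceral endoderm, was at 0.134, 0 and 0.0359 CPM in quad KO, against 1.19, 1.52 and 1.19 CPM in Tet TKO. Only 5 reads were counted over the quad KO libraries and 120 reads over the Tet TKO libraries, and the gene was kept by the filter through Tet TKO alone, so its place among the tested genes is not independent of the difference. Fitted over all genes with no filter, its log2 difference was -1.69 (adjusted p = 0.000191, limma), a size that the added 0.5 CPM holds down. On the reads of the genes kept by the filter, edgeR gave -4.38. In the WT background of the other table, Hnf4a was higher without Smchd1; the tables were not compared with each other.

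Gata6 fell as well, to 1.60, 1.45 and 1.90 CPM in quad KO, against 4.21, 4.15 and 4.40 CPM in Tet TKO (log2 -1.15 ± 0.12, 2.22-fold lower, adjusted p = 0.000383, limma). Sox7 was at 1.87, 1.63 and 0.790 CPM in quad KO, against 3.70, 3.60 and 3.50 CPM in Tet TKO (log2 -1.13 ± 0.22, adjusted p = 0.00572, limma). Neither gene's groups overlapped. How many of all genes separated in this way was not counted.

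Gata4 moved the other way from Gata6. It rose to 9.56, 9.76 and 7.54 CPM in quad KO, against 5.05, 4.29 and 4.66 CPM in Tet TKO (log2 0.87 ± 0.12, 1.82-fold, adjusted p = 0.00154, limma). Dab2 was also higher, at 6.88, 6.68 and 8.33 CPM in quad KO, against 4.95, 5.50 and 4.86 CPM in Tet TKO (log2 0.47 ± 0.11, 1.39-fold, adjusted p = 0.0142, limma). The Dab2 call was lost without Tet TKO replicate 1 (adjusted p = 0.0604) or replicate 3 (adjusted p = 0.063). Gata4 and Dab2 thus differed in direction from Gata6, Sox7 and Lama1, with which they had varied together among the replicates of the first table.

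The remaining genes of the group did not pass. Sox17 was at 0.468, 0.212 and 0.610 CPM in quad KO, against 1.29, 0.622 and 0.955 CPM in Tet TKO, on 37 and 89 reads per group (log2 -0.64, adjusted p = 0.0573, limma). Sparc was at 366, 370 and 326 CPM in quad KO, against 377, 376 and 384 CPM in Tet TKO (log2 -0.10, adjusted p = 0.162, limma), and Pdgfra at 3.98, 3.36 and 2.80 CPM in quad KO, against 3.43, 3.46 and 3.47 CPM in Tet TKO (log2 -0.04, adjusted p = 0.844, limma). Foxa2, not tested, was at 0.468, 0.566 and 0.682 CPM in quad KO, against 0.271, 0.138 and 0.405 CPM in Tet TKO. Sparc made up most of the summed endoderm signal in both genotypes and did not pass, while Lama1 fell.

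**Figure D5:**
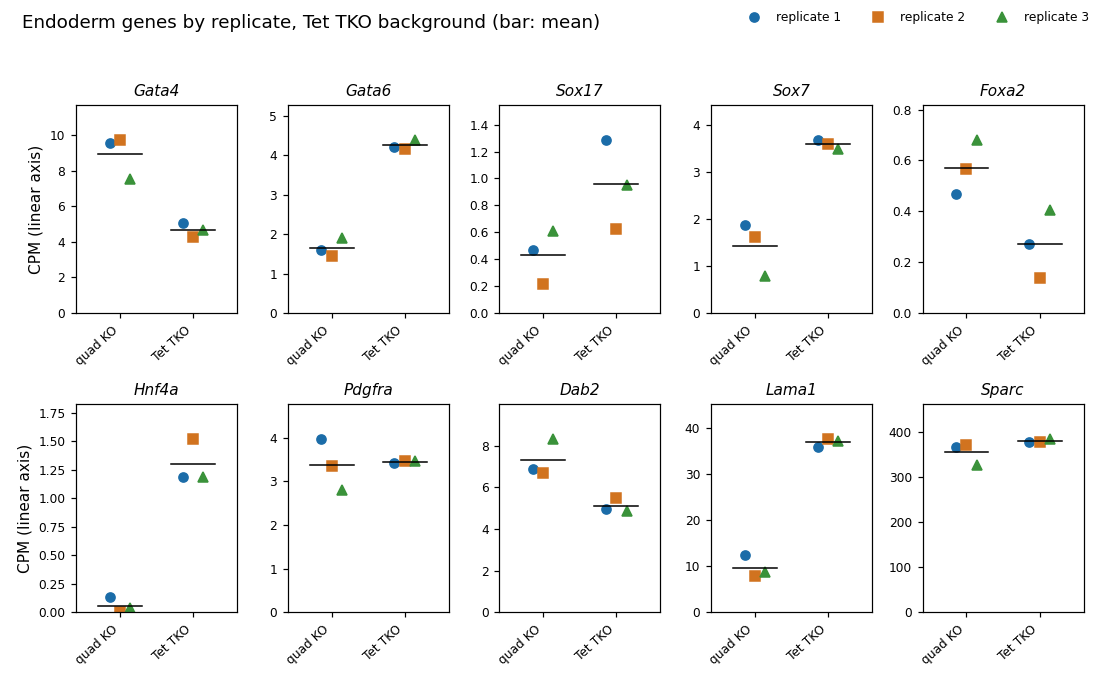
Level of each endoderm gene (CPM, linear axis from 0, with its own range in each panel) in the 3 replicates of quad KO and Tet TKO cells; symbols mark the replicate number and bars the mean. Lama1, Hnf4a, Gata6 and Sox7 are lower in quad KO and Gata4 and Dab2 higher, where 37.7% of all genes passed the test. Hnf4a was kept by the filter through Tet TKO alone.

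Replicates were close in Tet TKO and less so in quad KO. The median log2 SD over the 9 tested endoderm genes was 0.20 in quad KO and 0.04 in Tet TKO, against 0.13 and 0.06 over all genes. A replicate ratio of at least 2, with 0.5 CPM added, was found for 0 of the 9 genes in quad KO (2.69% of all genes) and for 0 in Tet TKO (0.0603%). Without that addition, the ratio exceeded 2 for Sox17 (2.88) and Sox7 (2.37) in quad KO and for Sox17 (2.07) in Tet TKO. Hnf4a, with a replicate at 0 in quad KO, had no ratio there. The summed level of the 9 genes other than Hnf4a was 403, 402 and 358 CPM in quad KO and 436, 436 and 444 CPM in Tet TKO.

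The rest of the endoderm programme was read from 5 further lists. In the first table, 0 of 9 tested endoderm transcription factors, 0 of 13 visceral endoderm genes and 0 of 6 definitive endoderm surface genes passed in any of the 6 contrasts with limma or edgeR, and 9 of 54, 6 of 78 and 3 of 36 tests had an unadjusted p under 0.05, against 19.6% over all genes and the 6 contrasts (9.77% to 26.0% in each). Of the 16 parietal endoderm genes, Nid1 passed once, in Dux KO vs WT, where 3.98% of all genes passed. This basement membrane linker rose to 213 ± 7.81 CPM in Dux KO, against 103 ± 1.58 CPM in WT (log2 1.04, adjusted p = 0.0238, limma). The 9 genes of PDGF and FGF signalling had 2 calls, both in Double KO vs Smchd1 KO, where 4.38% of all genes passed. Fgfr2, an FGF receptor, rose to 27.1 ± 11.7 CPM in Double KO, against 9.61 ± 1.82 CPM in Smchd1 KO (log2 1.38, adjusted p = 0.0268, limma). Fgf4, the ligand that drives primitive endoderm formation, fell to 178 ± 57.5 CPM in Double KO, against 350.4 ± 19.1 CPM in Smchd1 KO (log2 -1.02, adjusted p = 0.0168, limma).

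In quad KO vs Tet TKO, where 37.7% of all genes passed, the calls on these lists went both ways. Endoderm transcription factors had 2 higher and 1 lower of 9 tested, visceral endoderm genes 3 higher and 1 lower of 12, parietal endoderm genes 6 higher and 4 lower of 16, definitive endoderm surface genes 4 higher and 1 lower of 7, and the PDGF and FGF genes 1 higher and 3 lower of 9. Among these calls, Apoc2 and Srgn were kept by the filter through Tet TKO alone and Pyy and Pdgfd through quad KO alone, so the direction of these 4 was fixed by the filter. Tmprss2, a membrane protease, rose to 6.39 ± 1.25 CPM in quad KO, against 1.78 ± 0.109 CPM in Tet TKO (log2 1.58), and the apolipoprotein gene Apoc2 was at 0.255 ± 0.0702 CPM in quad KO, against 1.73 ± 0.212 CPM in Tet TKO (log2 -1.56). Srgn, a proteoglycan of parietal endoderm, was at 0.104 ± 0.0933 CPM in quad KO, against 0.958 ± 0.0435 CPM in Tet TKO (log2 -1.28). The hyaluronan receptor gene Cd44 and the activin antagonist gene Fst rose (log2 1.15 and 1.13), and Pdgfa, the ligand of Pdgfra, fell (log2 -0.96). The genes on these lists thus did not move as 1 group, with medians of -0.06 to 0.45 over the 5 lists against -0.01 over all genes.

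Markers of other lineages were given for the same samples, where 37.7% of all genes passed, 17.1% higher and 20.6% lower. ES cell markers had 1 higher and 6 lower of 11, and their sum was 3721 to 3908 CPM in quad KO and 4477 to 4574 CPM in Tet TKO. Single markers fell further than the sum: Nanog by -2.40 on the log2 scale, Esrrb by -1.92, Klf4 by -1.74 and Zfp42 by -1.34. The 1 that rose was Dppa5a (0.29). Fibroblast markers had 4 higher (Col3a1 kept through quad KO alone) and 0 lower of 6 tested, with a sum of 85.3 to 105 CPM in quad KO and 56.5 to 58.7 CPM in Tet TKO and Fap at 0 in both. Trophoblast markers had 4 higher and 1 lower of 7, with a sum of 101 to 177 CPM in quad KO and 95.9 to 100.2 CPM in Tet TKO and no gene at 0. Mesoderm markers had 4 higher and 0 lower of 5, with a sum of 20.7 to 23.5 CPM in quad KO and 11.8 to 12.7 CPM in Tet TKO. Their part in the endoderm differences was not tested. In the first table, calls on these 4 lists were Utf1 (lower in Dux KO vs WT), Tdgf1 and Ascl2 (lower in Double KO vs Smchd1 KO), Col3a1, under the filter in every WT sample, and Col5a1 (higher in Double KO vs WT) and Col3a1 (higher in Double KO vs Smchd1 KO), all named after their values were seen. With limma, ES cell markers had 2 calls in 66 tests, fibroblast markers 3 in 42 and trophoblast markers 1 in 42. Of all genes, 3.98% passed in Dux KO vs WT, 4.38% in Double KO vs Smchd1 KO and 1.57% in Double KO vs WT. Mesoderm markers had 0 calls in 30 tests with limma and with edgeR, and 0 at an unadjusted p under 0.05.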

How the data were processed

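Whole-transcriptome libraries were made from total RNA after ribosomal RNA depletion (KAPA RNA HyperPrep with RiboErase, per the labels' protocols). Per the submitters' processing notes, Trim Galore, STAR 2.5.1, the mm9 build and limma 3.38.2 were used; the read counter, gene annotation and filters were not given in the sources used here. The authors deposited a normalized signal for each gene, CPM by name, in 2 tables scaled separately (column totals 906871 to 1054029). Whole reads were recovered from them: below 200 reads, 100% of the values were whole to within 0.1 read. The second table also holds 3 WT-named columns of per-sample values that were not used. Exon lengths and chromosomes came from GENCODE M21 (32620 of 37310 IDs matched).

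The mean of the technical runs was taken as 1 sample. A gene was kept if 3 or more samples of a table reached 0.5 CPM (16200 and 14920 genes). The fit of log2(CPM + 0.5) used limma 3.58.1 under R 4.3.3 (intensity trend, a mean for each genotype, and every genotype of the table together), two-sided, with Benjamini-Hochberg adjustment over all genes kept and a call at an adjusted p under 0.05. The alternative on recovered reads was the quasi-likelihood test of edgeR 4.0.16. Both were run on simulated counts with a fixed spread, which does not cover the wide replicate spread of the knockouts. The 10 genes, the other lists and the tests were chosen with earlier results of these data known. A fold change is printed for an endoderm gene that passed or differed by at least 1 on the log2 scale, and for up to 6 passing genes of the other endoderm lists in a comparison. Some further values that did not pass, and those of single ES cell markers in quad KO vs Tet TKO, were added after they were seen. Leaving out samples with a chromosome shift was an alternative chosen after seeing the data. Replicate numbers gave no clear pairing of the samples (same-number correlation of deviations -0.13 to 0.47, over 0.1 in 4 of 12 pairs, and 7 of 12 best with their own number).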

Additional observations from a re-analysis of the deposited data

Results flagged for a closer look

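Hnf4a passed a test of whether the effect of Smchd1 loss differed between Dux KO and WT cells. The interaction was -2.13 ± 0.37 on the log2 scale (adjusted p = 0.0331, limma). In the Dux KO background, Hnf4a averaged 2.50 ± 0.611 CPM in Double KO and 4.43 ± 1.95 CPM in Dux KO (SD, n = 3 each). That difference did not pass on its own (log2 -0.66, adjusted p = 0.428, limma). In the WT background it averaged 6.95 ± 0.917 CPM in Smchd1 KO and 2.19 ± 0.0868 CPM in WT. Over the leave-one-out fits the interaction was -2.37 to -1.83, with adjusted p up to 0.128. The interaction did not pass with edgeR (adjusted p = 0.0641). In limma it did not pass with no filter, with a pseudocount of 0.1 or with a filter of 2 CPM. No endoderm gene was tested for outlying samples, since each genotype had 3.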

How the results depend on the processing

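Hnf4a was the single gene behind the calls of the first table. The number of endoderm genes passing in Smchd1 KO vs WT went to 0 with no filter and with quantile normalization, and was 0 to 0 with any 1 replicate left out. In Double KO vs Smchd1 KO it was 0 when the 2 genotypes were fitted alone and 0 to 1 with a replicate left out. For the interaction it was 0 with a pseudocount of 0.1, with no filter, with a filter of 2 CPM and with edgeR, and 0 to 1 with a replicate left out. In Dux KO vs WT it was 0 to 1 with a replicate left out. Without the samples that carry a chromosome shift, Hnf4a was at a log2 difference of 0.71 in Dux KO vs WT and -0.72 in Double KO vs Dux KO. Lama1 in Double KO vs Dux KO reversed to 0.15. That setting leaves a lone quad KO replicate and a lone Dux KO replicate, each with shifts of its own just under the threshold. Their spread is taken to equal that of the other genotypes of the table. The causes were not tested.

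The number for quad KO vs Tet TKO, where 37.7% of all genes passed, was 5 to 7 over the alternatives that kept all samples. It was 4 to 7 with a replicate left out. These counts include Hnf4a wherever it was tested, and at the main filter it was kept through Tet TKO alone. Hnf4a had no value there with a filter of 2 CPM or without any 1 Tet TKO replicate, since it then failed the filter. Whether the replicate number pairs the samples was unclear, as 7 of 12 correlated best with their own number. With that number as a block, the count was 0 in Dux KO vs WT, 0 in Double KO vs WT and 0 in Double KO vs Dux KO. It was 7 in quad KO vs Tet TKO, where Sox17 was added. Smchd1 KO had no labelled pairing of columns and was left out of that fit. Comparisons with WT in the second table were not run, because its WT-named columns could not be given to samples.

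Depth limits the low genes. In quad KO, Hnf4a rested on 5 reads and Sox17 on 37, so their folds depend on the added 0.5 CPM. Hnf4a had no read in quad KO replicate 2, where a count of 0 allows up to 3 reads, by counting error only. The other 9 genes did not pass in the first table, where the replicate spread of the knockouts is wide, and the signs printed for them are of fitted values only.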

Other observations

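The genes whose levels most resembled each endoderm gene over the 12 samples of the first table were listed as a description, by Pearson's r of log2(CPM + 0.5). The samples share 1 normalization, and no p is given. For Gata4 they were Pth1r (0.988), Habp2 (0.967) and Hs3st1 (0.965), and for Gata6 they were 1010001N08Rik (0.974), Srgn (0.96) and Dram1 (0.951). Sox17 was nearest to Dram1 (0.981), 1010001N08Rik (0.981) and Nxf7 (0.974). Sox7 was nearest to Klb (0.963), Foxq1 (0.963) and Tcfec (0.959), and Foxa2 to Irf4 (0.959), Glipr1 (0.957) and Tfpi (0.952). Pdgfra was nearest to Nostrin (0.981), Bmp6 (0.974) and 1010001N08Rik (0.974), and Dab2 to Tcfec (0.969), Nostrin (0.96) and Habp2 (0.949). The matrix gene Lama1 was nearest to Srgn (0.974), Bmp6 (0.962) and 1010001N08Rik (0.962), and Sparc to Aqp1 (0.98), Arsi (0.976) and Slco2a1 (0.97). Hnf4a was nearest to Cmklr1 (0.968), Ip6k2 (0.934) and Snap91 (0.898), none of which was on the lists of the other 9 genes. Srgn and Pth1r are also on the parietal endoderm list and Foxq1 on that of endoderm transcription factors.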
